A study of Mus musculus with 16 samples.

Results

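The 52 genes described here encode proteins that copy the DNA of a dividing cell or carry it through mitosis. They were found by gene symbol among the 20581 genes of the deposited table, all 52 were present, and the list of names, though it uses no measured value, was drawn up with earlier results of these data known. Of these, 26 act around S phase, the period of DNA copying, and 26 act in G2 and mitosis. They were sorted into 9 roles by textbook function. All 52 passed the filter on low counts, which asked for at least 1 CPM (a count scaled to the library's total) in at least 4 of 16 libraries and which 14217 genes passed. The lowest count of any of the 52 in any library was 12, for Cdc25c.

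The RNA came from primary smooth muscle cells of the aorta of C57BL/6J mice, all labelled male, in 16 libraries that form 4 groups of 4. KO cells came from mice in which the erythropoietin receptor gene drives Cre recombinase onto floxed Arg1 alleles (Arg1 flox/flox), so that arginase 1 is removed in the red blood cell lineage, which is not the cell type cultured. WT cells came from littermates, whose own alleles at these loci the labels leave unnamed, as they do the ages of the mice. The WT DMEM and KO DMEM groups stayed in Dulbecco's modified Eagle medium with 10% fetal bovine serum. The WT DIAM and KO DIAM groups spent 10 days in DIAM, a foam cell medium for lipid accumulation made of the same base medium with dexamethasone at 0.1 µM, insulin at 1 µM and ascorbic acid at 50 µg/mL. The labels name serum for the DMEM controls and say nothing of serum in DIAM. The additives came together, so their parts, and that of any difference in serum or culture time, cannot be told apart. All libraries carry 1 batch label. The series text names 4 biological replicates, the library protocol names triplicates, and no label ties a library to an animal or culture, so p-values measure the spread between these libraries.

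Total counts lay between 37221192 and 47626331 per library. Smooth muscle markers were present in every library. Acta2, smooth muscle actin, ranged from 1268 to 2320 CPM in the DMEM libraries and from 522 to 1095 CPM in DIAM. Of 10 smooth muscle markers Acta2, Tagln, Cnn1 and Smtn fell in DIAM in both genotypes, Myocd rose in both and Lmod1 rose in KO cells. Myh11, Des, Actg2 and Mylk had an adjusted p of at least 0.05 by edgeR in both genotypes. Of all genes 27.5% fell and 27.6% rose in WT cells, and 30.8% fell and 29.8% rose in KO cells. Markers of other cell types were also present. The summed level of 8 adventitial fibroblast markers was 1779 to 2175 CPM in the DMEM libraries and 2687 to 3468 CPM in the DIAM libraries. In both genotypes 6 of the 8 rose, while Lum and Serpinf1 fell. The sum of 7 leukocyte markers was 795 to 2267 CPM over all 16 libraries, and most of it was Lyz2. In WT DMEM the mean of that sum was 1365 CPM and that of Lyz2 was 1193 CPM. Of the 7 leukocyte markers 1 fell and 1 rose in DIAM in WT cells, and 4 fell and 0 rose in KO cells. The sum of the 10 smooth muscle markers was 2472 to 4190 CPM in DMEM and 1171 to 2301 CPM in DIAM. It was mostly Acta2 and Tagln, with means of 1960 and 1067 CPM beside 3638 CPM for the sum in WT DMEM. Over all libraries the sum of 8 endothelial markers was 41.4 to 105.5 CPM. That of 6 mesothelial markers was 62.8 to 669.8 CPM and that of 3 erythroid markers 0.301 to 8.26 CPM. Of the 8 endothelial markers 3 rose and 1 fell in DIAM in WT cells, and 4 rose and 2 fell in KO cells. Of the 6 mesothelial markers 2 rose and 0 fell in each genotype. Alas2, the 1 erythroid marker tested, rose in both. The part of these other cells in the members' changes was not tested. In bulk RNA, fewer cells of a type and less RNA per cell cannot be told apart, and this holds for every level below.

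DNA copying is prepared in G1, when Cdc6 and Cdt1 load the ring of Mcm2 to Mcm7 onto origins. Cyclin E with Cdk2 and E2F factors then start S phase, in which Cdc45 and the GINS proteins switch the ring on as the helicase, the Pcna clamp holds polymerases on the template, and ribonucleotide reductase supplies deoxynucleotides. Cyclin A and cyclin B with Cdk1 later drive the cell into mitosis, where spindle checkpoint kinases hold the anaphase-promoting complex until the chromosomes are attached. Genes of the first set are known targets of E2F, whose sites read like TTTGGCGC, and genes of the second set are known targets of the DREAM and Foxm1 complexes, which bind the CHR element (TTTGAA or a close relative). Smooth muscle cells of the aorta rarely divide in the vessel and resume division in culture with serum.

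The letters of the members' promoters differed between the 2 sets. Windows from 250 bases before to 50 bases after the start of a gene were taken from RefSeq (build GRCm38.p6), and genes were matched by symbol, since the submitters' processing notes name another build. Of the 52 members 43 matched, with 47 windows, 24 of S-phase and 23 of mitotic genes. Motifs were sought on both strands. E2F-like letters were TTTGGCGC, TTTCGCGC, TTTGGCGG and TTTCCCGC, the CHR was TTTGAA or TTCGAA, and CCAAT was sought as such. Matches of different motifs may overlap, as may E2F-like matches on opposite strands. E2F-like letters stood in 10 of 24 S-phase windows (41.7%, 95% Wilson interval 24.5 to 61.2) and in 1 of 23 mitotic windows (4.35%, 0.772 to 21), that of Cdk1, against 2.37% of all 32851 windows. The CHR stood in 6 of 24 S-phase windows (25.0%) and 19 of 23 mitotic windows (82.6%), against 19.2% of all windows. CCAAT stood in 17 of 24 (70.8%) and 20 of 23 (87.0%), against 37.4% of all windows. Some genes have 2 windows that share sequence, so the windows are not independent. A match describes the letters of the window and does not show that a factor bound it in these cells.

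The next sequences are promoters of 4 members, picked after their values were seen, to show what these letters look like in place. Mcm5 fell in DIAM and carries E2F-like letters. Rrm2 rose and carries neither E2F-like nor CHR letters. Plk1 and Cenpa fell and carry a CHR just after the start. Capitals mark the E2F-like and CHR matches, and all 4 windows are printed on the plus strand, which is the gene's strand, 5′ to 3′.
Mcm5, chr8:75109259-75109558 (+): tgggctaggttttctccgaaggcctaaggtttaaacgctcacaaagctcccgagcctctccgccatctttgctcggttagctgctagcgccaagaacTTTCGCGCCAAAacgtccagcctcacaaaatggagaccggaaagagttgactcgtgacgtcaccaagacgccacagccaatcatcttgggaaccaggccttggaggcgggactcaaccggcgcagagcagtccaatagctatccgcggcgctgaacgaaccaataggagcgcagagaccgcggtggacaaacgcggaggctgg
Rrm2, chr12:24708004-24708303 (+): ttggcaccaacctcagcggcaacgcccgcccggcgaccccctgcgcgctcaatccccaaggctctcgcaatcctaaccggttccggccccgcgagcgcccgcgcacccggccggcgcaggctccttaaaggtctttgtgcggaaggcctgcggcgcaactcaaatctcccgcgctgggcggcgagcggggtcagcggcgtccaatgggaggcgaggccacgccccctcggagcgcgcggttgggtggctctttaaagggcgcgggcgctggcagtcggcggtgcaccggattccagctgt
Plk1, chr7:122159185-122159484 (+): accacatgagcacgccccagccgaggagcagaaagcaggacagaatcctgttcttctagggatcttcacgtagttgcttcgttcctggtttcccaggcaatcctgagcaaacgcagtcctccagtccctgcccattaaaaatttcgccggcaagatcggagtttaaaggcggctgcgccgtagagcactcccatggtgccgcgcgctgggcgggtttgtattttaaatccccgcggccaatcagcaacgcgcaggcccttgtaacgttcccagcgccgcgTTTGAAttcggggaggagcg
Cenpa, chr5:30666636-30666935 (+): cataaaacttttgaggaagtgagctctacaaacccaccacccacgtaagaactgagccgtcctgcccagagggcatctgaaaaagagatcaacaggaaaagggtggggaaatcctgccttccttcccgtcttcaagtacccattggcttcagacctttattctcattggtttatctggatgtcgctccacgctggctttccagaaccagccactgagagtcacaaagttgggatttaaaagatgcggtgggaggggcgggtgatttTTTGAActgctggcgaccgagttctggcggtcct
In Mcm5 the capitals join 2 overlapping E2F-like matches on opposite strands, 153 and 149 bases before the start. The CHR begins 31 bases after the start in Plk1 and 17 bases after it in Cenpa. Letters and direction of change did not go together throughout: E2f2 rose in WT cells and Mcm7 passed in neither genotype, each with E2F-like letters in 1 of its 2 windows, Tk1, Tyms and Ccne1 fell with neither E2F-like nor CHR letters, and Anln passed in neither genotype with the CHR.

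The first question was how these genes differed between WT cells after 10 days in DIAM and WT cells in DMEM. Most members fell, and mitotic members fell further than S-phase members. Calls here are an adjusted p under 0.05 over all genes in the quasi-likelihood test of edgeR. By this test 23 of 26 mitotic members fell and 0 rose. Of 26 S-phase members 14 fell and 3 rose, which were Rrm1, Rrm2 and E2f2. In this comparison 55.1% of all 14217 genes were called, 27.5% as falls and 27.6% as rises, so the count of mitotic members that fell lies far above the background share. The median log2 fold change, DIAM against DMEM, was -0.36 over S-phase members, -0.79 over mitotic members and -0.01 over all genes tested. Every mitotic member had a negative estimate, between -1.43 and -0.07.

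KO cells gave the same order of the 2 sets, with medians further below 0. There, 25 of 26 mitotic members fell, 19 of 26 S-phase members fell and 2 rose, Rrm1 and Rrm2, while 60.7% of all genes were called, 30.8% as falls and 29.8% as rises. The median log2 fold change was -0.54 over S-phase members, -1.40 over mitotic members and -0.02 over all genes. All 14 S-phase and all 23 mitotic members that fell in WT cells also fell in KO cells. Mcm6, Cdt1, Pcna, Rfc4, Cdk2, Cdc25c and Foxm1 passed the test in KO cells alone, and whether their change differs between genotypes is a question for the interaction test below. Mcm7, Cdc45, Gins1, Prim1 and Anln passed in neither genotype. The 2 medium comparisons share no libraries.

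**Figure D1:**
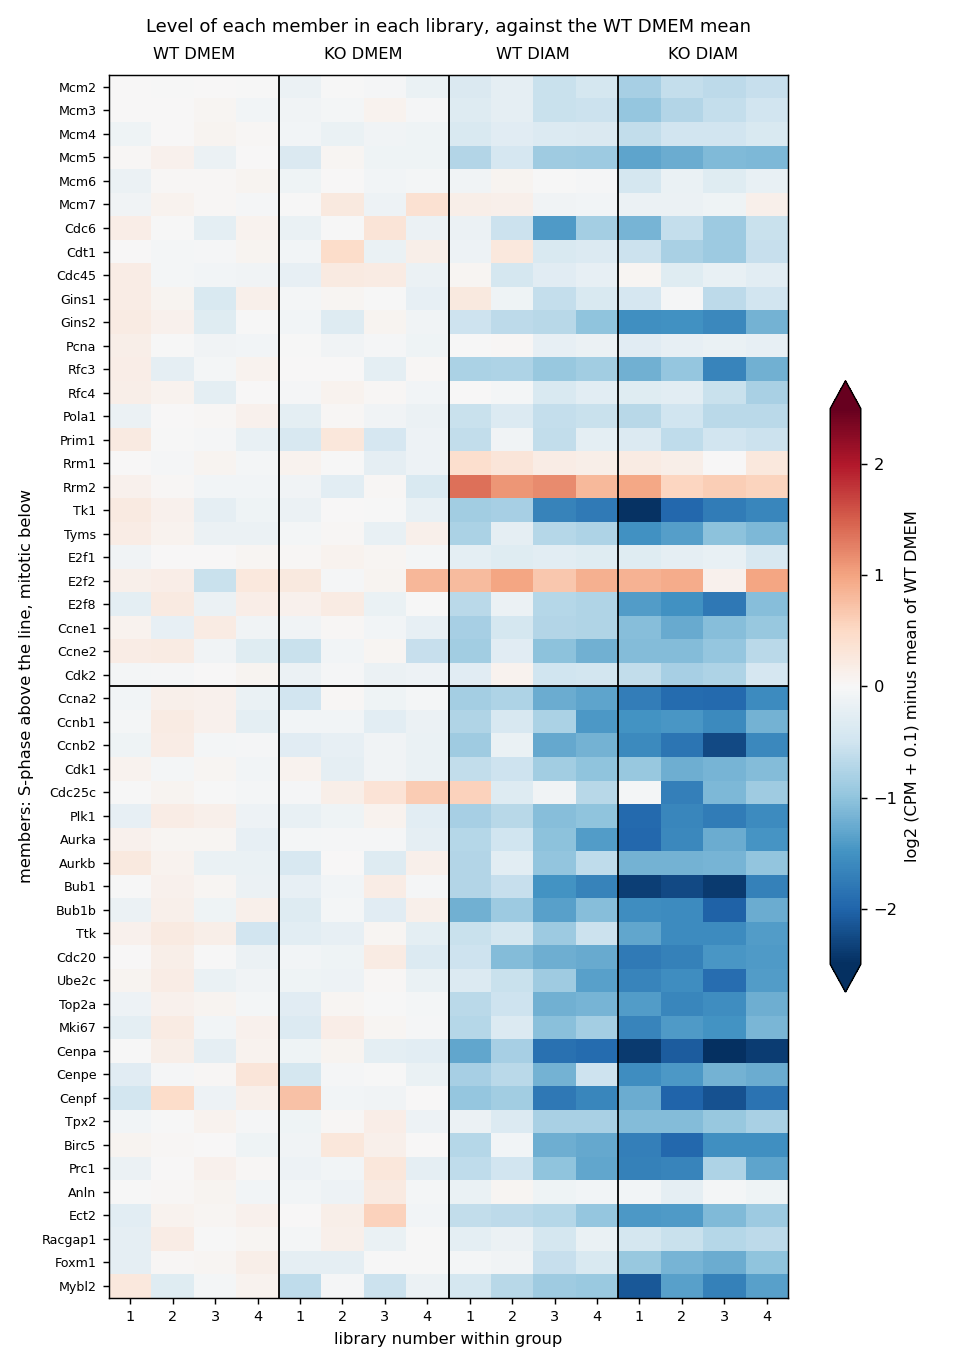
Each row is 1 of the 52 members and each column 1 of the 16 libraries; colour gives log2 of CPM plus a pseudocount of 0.1, minus the mean of the 4 WT DMEM libraries, on a scale from blue (lower) to red (higher). The mitotic rows below the line are blue in nearly all DIAM columns and darkest in KO DIAM. Rrm2 and, in most DIAM columns, E2f2 are red among the S-phase rows, while Rrm1, whose rise was small, Anln and Mcm7 stay near white.

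**Figure D2:**
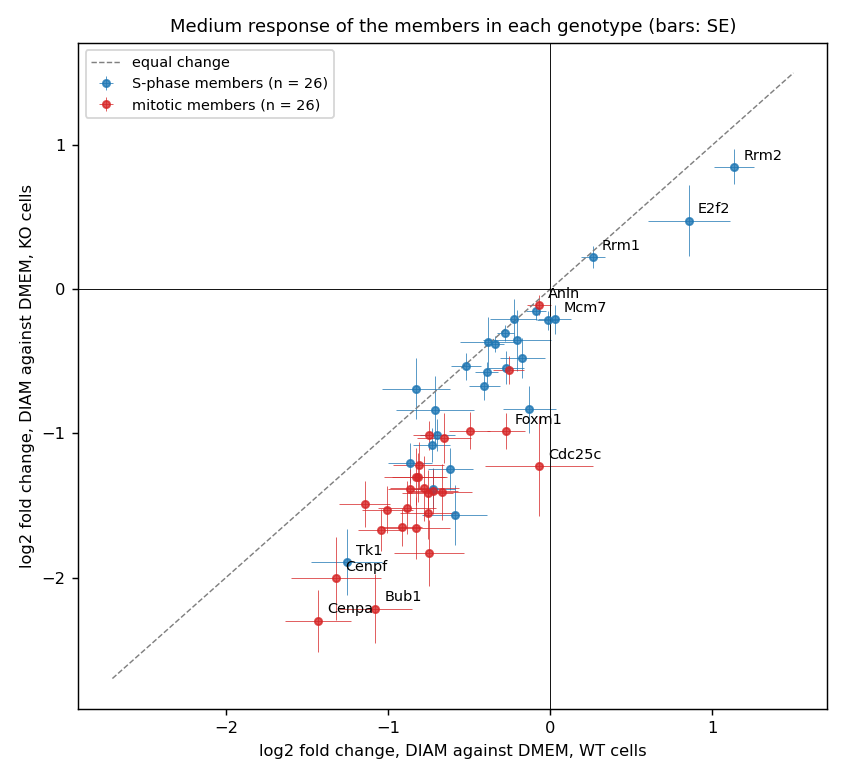
Each point is 1 member, with its log2 fold change from DMEM to DIAM in WT cells on the x axis and in KO cells on the y axis; bars are standard errors and the dashed line marks equal change. Mitotic members (red) lie below and to the left of most S-phase members (blue), most points of both sets lie below the dashed line, and Rrm1, Rrm2 and E2f2 are the only points with positive estimates in both genotypes.

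The licensing and helicase role holds 11 members, of which 6 fell in WT cells and 8 in KO cells. Beside this and each role count below, 27.5% of all genes fell in WT cells and 30.8% in KO cells. Values below are given for libraries 1 to 4 of each group in that order, as CPM after trimmed-mean scaling, and fold changes are DMEM over DIAM for a fall. Mcm2, a subunit of the helicase ring, was at 21.1, 20.9, 21.1 and 20.8 CPM in the WT DMEM libraries, 18.96, 20.7, 20.5 and 18.8 in KO DMEM, 16.3, 17.9, 14.3 and 15.5 in WT DIAM and 11.8, 13.9, 13.4 and 13.95 in KO DIAM. All 8 DIAM libraries lay below all 8 DMEM libraries. Mcm2 was 1.31-fold lower in WT cells (log2 fold change -0.39, SE 0.07, adjusted p = 0.0002497 by edgeR) and 1.49-fold lower in KO cells (adjusted p = 4.55e-06). Its partner in the ring Mcm4 was at 27.3, 29.6, 30.6 and 29.7 CPM in the WT DMEM libraries, 27.8, 25.96, 27.6 and 27.3 in KO DMEM, 22.5, 24.1, 23.2 and 22.7 in WT DIAM and 19.1, 21.05, 21.1 and 22.4 in KO DIAM. The media did not overlap in either genotype, and the fall was 1.27-fold in WT cells (SE 0.06 on the log2 scale) and 1.299-fold in KO cells (SE 0.06). Mcm5 had the largest fall of the 6 ring subunits, with 12.7, 13.5, 11.3 and 12.5 CPM in the WT DMEM libraries, 9.72, 12.9, 11.5 and 11.5 in KO DMEM, 7.496, 9.31, 6.65 and 6.59 in WT DIAM and 4.91, 5.22, 5.78 and 5.64 in KO DIAM. Every DIAM library was below every DMEM library, and the fall was 1.66-fold in WT cells (adjusted p = 5.13e-05) and 2.11-fold in KO cells (adjusted p = 7.37e-07).

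The other ring subunits differed from each other in their response. Mcm6 was at 25.7, 28.9, 29.1 and 29.8 CPM in the WT DMEM libraries, 26.2, 28.4, 26.9 and 27.3 in KO DMEM, 26.6, 29.7, 28.2 and 27.6 in WT DIAM and 20.8, 25.1, 22.98 and 24.8 in KO DIAM. The WT groups overlapped, with a log2 fold change of -0.02 (SE 0.06, adjusted p = 0.851), while all KO DIAM libraries lay below all KO DMEM libraries and Mcm6 fell 1.16-fold there (adjusted p = 0.00932). Mcm7 ranged from 18.2 to 26.3 CPM over the 16 libraries and its log2 fold change was 0.03 in WT and -0.21 in KO cells, neither past the threshold. Mcm3 fell 1.33-fold in WT and 1.59-fold in KO cells, with no overlap between the media.

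Among the factors that load and activate the ring, Cdt1, the loader, was at 5.05, 4.83, 4.87 and 5.27 CPM in the WT DMEM libraries, 4.79, 6.904, 4.42 and 5.56 in KO DMEM, 4.54, 6.02, 3.82 and 3.91 in WT DIAM and 3.41, 2.82, 2.602 and 3.33 in KO DIAM. In WT cells library 2 in DIAM was above all 4 DMEM libraries and the other 3 were below them, and the log2 fold change of -0.13 did not pass (adjusted p = 0.524). In KO cells the media did not overlap and Cdt1 fell 1.78-fold (SE 0.16 on the log2 scale, adjusted p = 0.000378). Gins2, a GINS subunit of the active helicase, was at 10.7, 9.92, 7.41 and 9.16 CPM in the WT DMEM libraries, 8.8, 7.34, 9.69 and 8.69 in KO DMEM, 6.43, 5.85, 5.65 and 4.56 in WT DIAM and 3.13, 3.16, 2.96 and 3.98 in KO DIAM. It fell 1.65-fold in WT and 2.61-fold in KO cells with no overlap between media in either, and the KO fall was the largest of this role. Cdc6, the other loader, fell 1.64-fold in WT cells, where library 1 in DIAM reached into the DMEM range, and 1.79-fold in KO cells. Cdc45 and Gins1, which complete the active helicase, gave log2 fold changes of -0.22 and -0.20 in WT and -0.21 and -0.36 in KO cells, none past the threshold.

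At the replication fork 2 of 5 members fell in WT cells, Rfc3 and Pola1, and 4 of 5 in KO cells. Of all genes 27.5% and 30.8% fell, and whether so few members differ from these shares was not tested. Pcna, the sliding clamp and a common marker of proliferating cells, was at 65.1, 58.04, 55.3 and 55.9 CPM in the WT DMEM libraries, 57.7, 55.1, 57.6 and 54.4 in KO DMEM, 57.8, 59.5, 50.6 and 52.6 in WT DIAM and 48.1, 50.9, 52.2 and 50.9 in KO DIAM. Its 2 WT groups overlapped, with a log2 fold change of -0.09 (SE 0.06, adjusted p = 0.234), which passed with WT DIAM libraries 1 and 2 both left out (-0.18, adjusted p = 0.0439). Those 2 libraries had the highest Pcna in WT DIAM, so leaving them out enlarges the fall by the choice itself. In KO cells all DIAM libraries were below all DMEM libraries, and Pcna was 1.11-fold lower (adjusted p = 0.0373). That KO call was lost without KO DIAM library 1 (adjusted p = 0.1004), 2 (0.0611) or 4 (0.0593), without KO DMEM library 1 (0.0971) or 3 (0.0883), without WT DMEM library 2 (0.0523) and with no filter on low counts (0.0744). Pola1, the catalytic subunit of the polymerase that starts new strands, was at 7.71, 8.55, 8.66 and 9.21 CPM in the WT DMEM libraries, 7.12, 8.74, 8.06 and 7.71 in KO DMEM, 5.77, 6.66, 5.62 and 5.76 in WT DIAM and 5.22, 6.03, 5.29 and 5.27 in KO DIAM. The DIAM values of both genotypes lay close together and below every DMEM value, and Pola1 fell 1.43-fold in WT and 1.45-fold in KO cells. Rfc3, a subunit of the clamp loader, fell 1.82-fold and 2.31-fold, the largest falls at the fork, again with no overlap. Rfc4, another clamp loader subunit, fell in KO cells (1.39-fold) and gave -0.17 on the log2 scale in WT cells, which did not pass. Prim1, the primase that lays down RNA primers, passed in neither genotype (-0.38 and -0.37).

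The nucleotide supply genes moved in both directions. Rrm1 and Rrm2, the large and the small subunit of ribonucleotide reductase, rose in DIAM, while Tk1 and Tyms, the thymidine kinase and the thymidylate synthase of the thymidine nucleotide supply, fell. Rrm2 was at 31.3, 29.3, 27.6 and 27.5 CPM in the WT DMEM libraries, 27.2, 24.1, 29.4 and 22.2 in KO DMEM, 75.5, 62.3, 65.99 and 50.5 in WT DIAM and 56.7, 41.97, 44.1 and 42.7 in KO DIAM. All 8 DIAM libraries were above all 8 DMEM libraries, highest in WT DIAM library 1 and lowest among DIAM libraries in KO DIAM library 2. Rrm2 was 2.196-fold higher in WT cells (log2 fold change 1.14, SE 0.12, adjusted p = 9.50e-07) and 1.801-fold higher in KO cells (log2 fold change 0.85, SE 0.12, adjusted p = 1.81e-05). No other member rose as far.

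Rrm1 was at 117, 114, 122 and 112 CPM in the WT DMEM libraries, 123, 116, 99.6 and 106 in KO DMEM, 155, 142, 132 and 129 in WT DIAM and 134, 129, 116 and 139 in KO DIAM. The WT groups did not overlap, whereas KO DIAM library 3 fell within the KO DMEM range. The rise was 1.201-fold in WT cells (adjusted p = 0.00608) and 1.17-fold in KO cells (adjusted p = 0.01503). In KO cells the Rrm1 call was lost without KO DMEM library 3 (adjusted p = 0.0519), without KO DIAM library 4 (0.0512) and with quantile normalization (0.109), and in WT cells with WT DIAM libraries 1 and 2 both left out (0.0968). Tyms was at 13.9, 13.04, 11.1 and 11.01 CPM in the WT DMEM libraries, 11.8, 12.4, 10.7 and 13.3 in KO DMEM, 6.98, 10.4, 7.42 and 7.16 in WT DIAM and 4.19, 4.64, 5.94 and 5.56 in KO DIAM. Its DIAM values were all below its DMEM values, with WT DIAM library 2 nearest to them, and the fall was 1.53-fold in WT and 2.37-fold in KO cells (adjusted p = 1.53e-06). Tk1 had the largest fall of all S-phase members, from 7.26 ± 1.06 to 3.04 ± 1.08 CPM in WT cells (mean ± SD, n = 4; 2.39-fold) and from 6.803 ± 0.449 to 1.83 ± 0.458 CPM in KO cells (3.71-fold).

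Among the 6 regulators of S-phase entry, 4 fell in WT cells and 5 in KO cells, beside 27.5% and 30.8% of all genes. E2f1, an activator of S-phase genes, was at 32.4, 34.6, 34.7 and 35.3 CPM in the WT DMEM libraries, 34.99, 36.2, 35.2 and 32.9 in KO DMEM, 28.97, 27.9, 28.6 and 27.6 in WT DIAM and 27.6, 29.3, 30.1 and 25.9 in KO DIAM. The media did not overlap in either genotype, the 2 DIAM groups overlapped each other, and the fall was small, 1.21-fold in WT (SE 0.05 on the log2 scale) and 1.23-fold in KO cells (SE 0.05). E2f2, a related activator, went the other way and was at 1.27, 1.32, 0.762 and 1.41 CPM in the WT DMEM libraries, 1.39, 1.14, 1.22 and 2.13 in KO DMEM, 2.08, 2.39, 1.899 and 2.22 in WT DIAM and 2.198, 2.31, 1.26 and 2.42 in KO DIAM. It rose 1.81-fold in WT cells with no overlap (adjusted p = 0.00872), a call lost with WT DIAM libraries 1 and 2 both left out (0.0502). In KO cells DMEM library 4 was high and DIAM library 3 low, the groups overlapped, and the estimate of 0.48 on the log2 scale did not pass (adjusted p = 0.109), though it did without KO DMEM library 4 (0.0224) or without KO DIAM library 3 (0.0285). E2f8, a repressor of E2F targets that is itself made in S phase, was at 1.97, 2.74, 2.095 and 2.65 CPM in the WT DMEM libraries, 2.54, 2.71, 2.08 and 2.32 in KO DMEM, 1.42, 2.11, 1.39 and 1.34 in WT DIAM and 0.828, 0.753, 0.603 and 1.07 in KO DIAM. WT DIAM library 2 overlapped the WT DMEM range and the other 3 did not. The fall was 1.51-fold in WT cells (adjusted p = 0.0194) and 2.96-fold in KO cells (adjusted p = 7.92e-06). The WT call was lost without WT DMEM library 2 (0.0573) or 4 (0.0523) and without WT DIAM library 3 (0.0535) or 4 (0.0572).

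Cyclin E and its kinase partner differed in size of response. Ccne1, cyclin E1, was at 13.7, 11.1, 14.8 and 11.98 CPM in the WT DMEM libraries, 12.02, 13.01, 12.3 and 11.2 in KO DMEM, 7.14, 9.43, 7.67 and 7.59 in WT DIAM and 6.08, 5.27, 6.11 and 6.6 in KO DIAM. All DIAM values were below all DMEM values, and Ccne1 fell 1.62-fold in WT (adjusted p = 4.68e-05) and 2.01-fold in KO cells. Ccne2, cyclin E2, fell 1.77-fold and 1.62-fold. Cdk2, the kinase that both cyclins activate, was at 15.95, 16.2, 16.6 and 17.3 CPM in the WT DMEM libraries, 14.8, 16.2, 14.8 and 15.2 in KO DMEM, 13.5, 17.4, 11.7 and 12.01 in WT DIAM and 10.7, 9.19, 9.67 and 12.3 in KO DIAM. WT DIAM library 2 was the highest WT value and the other 3 lay below the DMEM range, and the WT estimate of -0.27 on the log2 scale just missed the threshold (adjusted p = 0.0515). Without WT DIAM library 2 it passed (log2 fold change -0.41, adjusted p = 0.00126), as it did without KO DIAM library 2 (0.0491) or 4 (0.0384), with WT DIAM libraries 1 and 2 both left out (0.00139), with median-ratio scaling (0.0492), with a filter at 5 CPM (0.0497), with DESeq2 (0.0416), with limma (0.0357) and with quantile normalization (0.00511). WT DIAM libraries 1 and 2 had that group's highest Cdk2, so leaving them out enlarges the WT fall by the choice itself. In KO cells Cdk2 fell 1.457-fold with no overlap.

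**Figure D3:**
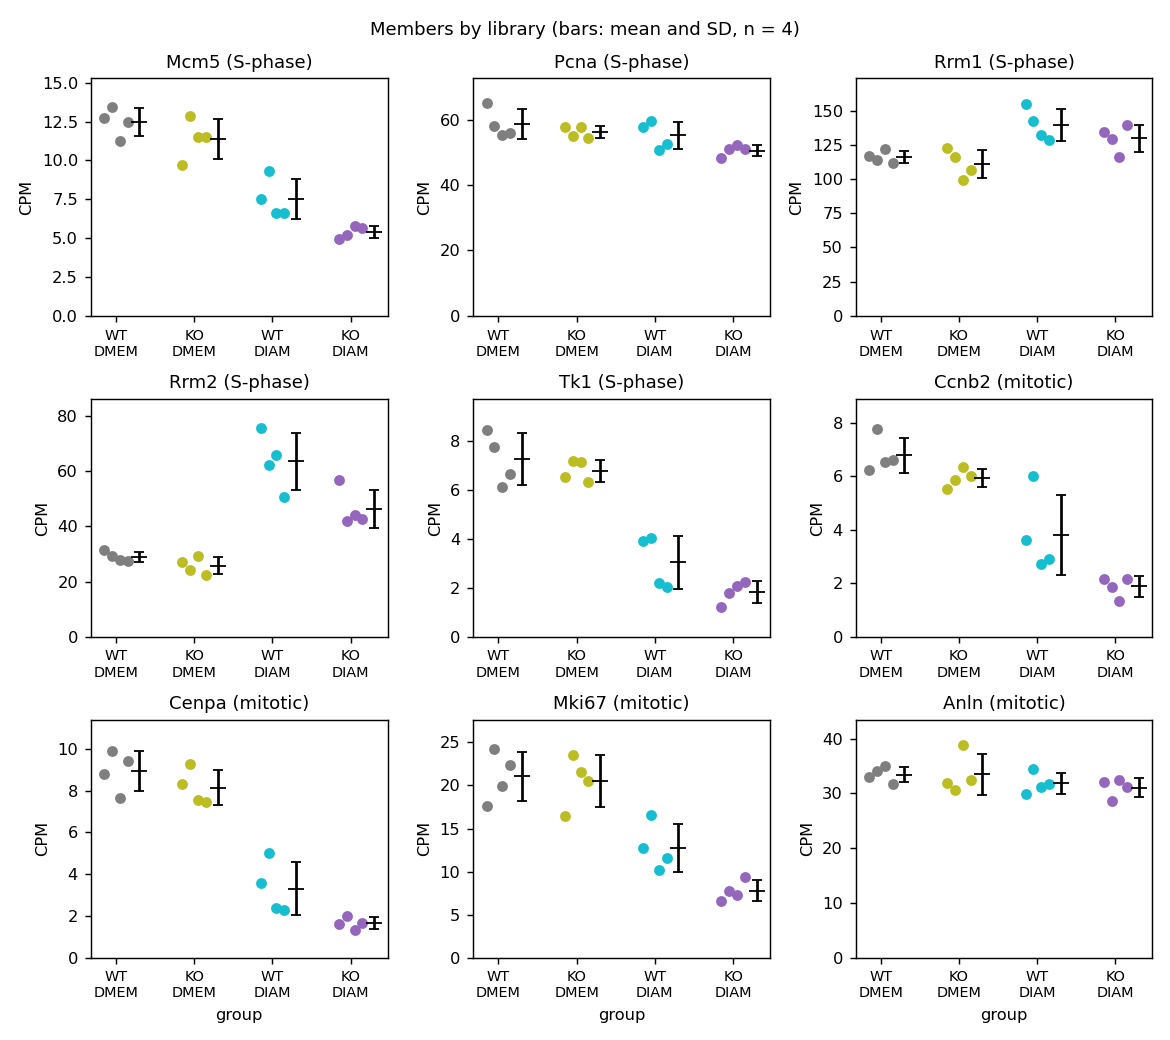
CPM of 9 members in each of the 16 libraries, with mean and SD of each group (n = 4) beside the points; the y axes start at 0. Mcm5, Tk1, Ccnb2, Cenpa and Mki67 are lower in DIAM and lowest in KO DIAM, Rrm1 and Rrm2 are higher in DIAM, and the means of Pcna and Anln lie close together in all groups.

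The cyclins and kinases of mitotic entry fell in WT cells for 7 of 8 members and in KO cells for all 8. Ccna2, cyclin A2, which serves both S phase and mitotic entry, was at 13.3, 15.2, 15.05 and 12.4 CPM in the WT DMEM libraries, 10.01, 14.3, 12.9 and 13.6 in KO DMEM, 7.72, 8.08, 5.83 and 5.49 in WT DIAM and 4.16, 3.62, 3.56 and 4.63 in KO DIAM. DMEM and DIAM libraries were far apart, and the 4 KO DIAM libraries lay below the 4 WT DIAM libraries. The fall was 2.06-fold in WT cells (log2 fold change -1.04, SE 0.14, adjusted p = 1.17e-05) and 3.18-fold in KO cells (-1.67, SE 0.15, adjusted p = 6.75e-08). Ccnb1, cyclin B1, was at 11.3, 13.5, 12.6 and 9.87 CPM in the WT DMEM libraries, 11.2, 11.1, 9.82 and 10.5 in KO DMEM, 6.95, 8.91, 6.75 and 4.26 in WT DIAM and 4.11, 4.23, 3.83 and 5.09 in KO DIAM. The media did not overlap, and within DIAM WT library 4 fell among the KO values. Ccnb1 fell 1.76-fold in WT and 2.47-fold in KO cells. Ccnb2, cyclin B2, was at 6.25, 7.75, 6.52 and 6.61 CPM in the WT DMEM libraries, 5.53, 5.87, 6.35 and 6.01 in KO DMEM, 3.61, 5.99, 2.72 and 2.92 in WT DIAM and 2.17, 1.85, 1.34 and 2.16 in KO DIAM. WT DIAM library 2 was the highest DIAM value and lay just under the lowest WT DMEM value. Ccnb2 fell 1.77-fold in WT (adjusted p = 0.00295) and 3.15-fold in KO cells (adjusted p = 6.35e-06).

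Cdk1, the kinase that the B cyclins activate, was at 24.9, 22.7, 24.2 and 22.3 CPM in the WT DMEM libraries, 24.9, 19.96, 22.2 and 20.9 in KO DMEM, 15.3, 16.3, 12.9 and 11.7 in WT DIAM and 12.1, 10.01, 10.4 and 11.04 in KO DIAM. The media were well apart, and 3 of the 4 KO DIAM values lay below all WT DIAM values. Cdk1 fell 1.68-fold in WT (adjusted p = 1.18e-05) and 2.02-fold in KO cells (adjusted p = 3.48e-07). Plk1, the polo-like kinase of mitotic entry, was at 6.598, 8.65, 8.34 and 6.93 CPM in the WT DMEM libraries, 6.63, 7.03, 8.06 and 6.298 in KO DMEM, 4.24, 4.62, 3.59 and 3.699 in WT DIAM and 1.89, 2.38, 2.19 and 2.47 in KO DIAM. Its 3 levels were separate, with DMEM highest, WT DIAM between and KO DIAM lowest. It fell 1.89-fold in WT (SE 0.13 on the log2 scale) and 3.13-fold in KO cells (SE 0.13). Aurka, the kinase of the spindle poles, was at 6.297, 6.096, 6.07 and 5.07 CPM in the WT DMEM libraries, 5.63, 5.71, 5.74 and 5.005 in KO DMEM, 3.56, 4.15, 2.85 and 2.17 in WT DIAM and 1.42, 1.85, 2.41 and 2.05 in KO DIAM. It fell 1.85-fold and 2.86-fold with no overlap between media. Aurkb, the kinase of the chromosomal passenger complex, fell 1.57-fold and 2.04-fold. Cdc25c, a phosphatase that switches Cdk1 on and the member with the lowest counts, was spread between 0.697 and 1.81 CPM in WT DIAM and gave a WT log2 fold change of -0.07 (SE 0.33), which did not pass. In KO cells it fell 2.34-fold (adjusted p = 0.00603).

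All 5 members of the spindle checkpoint and of anaphase onset fell in both genotypes. Bub1, a checkpoint kinase, was at 5, 5.48, 5.23 and 4.55 CPM in the WT DMEM libraries, 4.37, 4.78, 5.74 and 4.93 in KO DMEM, 2.98, 3.34, 1.72 and 1.53 in WT DIAM and 0.905, 0.972, 0.877 and 1.51 in KO DIAM. WT DIAM libraries 1 and 2 lay well above libraries 3 and 4, and KO DIAM library 4 was just under the lowest WT DIAM value. Bub1 fell 2.11-fold in WT cells (adjusted p = 0.000737) and 4.64-fold in KO cells (adjusted p = 8.19e-07). Ttk, the checkpoint kinase also called Mps1, was at 2.25, 2.43, 2.29 and 1.46 CPM in the WT DMEM libraries, 1.702, 1.78, 2.15 and 1.72 in KO DMEM, 1.37, 1.49, 1.05 and 1.39 in WT DIAM and 0.776, 0.632, 0.63 and 0.728 in KO DIAM. WT DMEM library 4 was low and fell among the WT DIAM values, whereas the KO media did not overlap. The fall was 1.59-fold in WT (adjusted p = 0.00562) and 2.66-fold in KO cells. Cdc20, an activator of the anaphase-promoting complex, was at 11.3, 12.6, 11.2 and 10.2 CPM in the WT DMEM libraries, 10.7, 10.5, 12.99 and 8.84 in KO DMEM, 7.85, 5.26, 4.8 and 4.64 in WT DIAM and 3.23, 3.43, 4.03 and 4.18 in KO DIAM. WT DIAM library 1 stood above the other DIAM values but below all DMEM values, and Cdc20 fell 2.01-fold and 2.89-fold.

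Ube2c, the ubiquitin-conjugating enzyme that works with the anaphase-promoting complex, was at 9.35, 10.2, 7.96 and 8.46 CPM in the WT DMEM libraries, 8.25, 8.197, 9.13 and 7.95 in KO DMEM, 7.03, 6.04, 4.8 and 3.43 in WT DIAM and 2.77, 2.96, 2.33 and 3.35 in KO DIAM. No DIAM library reached the DMEM range, and KO DIAM libraries were below WT DIAM libraries throughout. Ube2c fell 1.69-fold in WT (adjusted p = 0.00143) and 2.93-fold in KO cells (adjusted p = 1.45e-06). Bub1b, the checkpoint protein BubR1, fell 2.21-fold in WT cells and 2.803-fold in KO cells.

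The 7 genes of chromosomes, kinetochores and the spindle all fell in both genotypes, and the largest fall of the 52 members is among them. Cenpa, the histone H3 variant of centromeres, was at 8.82, 9.89, 7.64 and 9.43 CPM in the WT DMEM libraries, 8.302, 9.28, 7.55 and 7.45 in KO DMEM, 3.56, 4.998, 2.39 and 2.28 in WT DIAM and 1.603, 2.02, 1.34 and 1.64 in KO DIAM. Each DIAM value was below each DMEM value and each KO DIAM value below each WT DIAM value. Cenpa fell 2.698-fold in WT cells (log2 fold change -1.43, SE 0.20, adjusted p = 1.98e-05) and 4.92-fold in KO cells (-2.30, SE 0.22, adjusted p = 1.47e-07), the largest fall of any member in each genotype. Top2a, the topoisomerase that untangles sister chromatids, was at 37.2, 43.9, 42.7 and 39.4 CPM in the WT DMEM libraries, 33.3, 42.4, 40.5 and 39.6 in KO DMEM, 25.6, 28.2, 17.7 and 18.2 in WT DIAM and 15.4, 13, 13.9 and 17.4 in KO DIAM. WT DIAM libraries 1 and 2 were above libraries 3 and 4, and the KO DIAM values lay under all of them. The fall was 1.82-fold in WT and 2.61-fold in KO cells. Mki67, the coat protein of mitotic chromosomes behind the Ki-67 proliferation stain, was at 17.6, 24.2, 19.96 and 22.4 CPM in the WT DMEM libraries, 16.4, 23.5, 21.6 and 20.6 in KO DMEM, 12.7, 16.6, 10.1 and 11.6 in WT DIAM and 6.595, 7.78, 7.31 and 9.41 in KO DIAM. Its media did not overlap, and Mki67 fell 1.65-fold in WT (adjusted p = 0.000817) and 2.64-fold in KO cells (adjusted p = 1.18e-06).

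Cenpe, a kinesin that aligns chromosomes at the kinetochore, was at 6.297, 7.54, 7.87 and 9.53 CPM in the WT DMEM libraries, 5.71, 7.58, 7.64 and 6.87 in KO DMEM, 4.295, 4.81, 3.34 and 5.36 in WT DIAM and 2.56, 2.79, 3.37 and 3.196 in KO DIAM. The media were apart in both genotypes, by 1.75-fold in WT and 2.33-fold in KO cells. Tpx2, a spindle assembly factor, was at 19.2, 19.9, 21.2 and 19.7 CPM in the WT DMEM libraries, 18.5, 20.4, 22.5 and 18.2 in KO DMEM, 18.1, 15.8, 11.4 and 11.3 in WT DIAM and 9.39, 9.36, 10.3 and 11.3 in KO DIAM. WT DIAM library 1 came close to the WT DMEM range and the other DIAM values did not. Tpx2 fell 1.41-fold in WT (adjusted p = 0.00384) and 1.97-fold in KO cells. Birc5, survivin of the chromosomal passenger complex, was at 5.37, 5.19, 5.16 and 4.702 CPM in the WT DMEM libraries, 4.82, 6.23, 5.62 and 5.12 in KO DMEM, 3.09, 4.86, 2.13 and 2.04 in WT DIAM and 1.5, 1.24, 1.698 and 1.69 in KO DIAM. WT DIAM library 2 lay within the WT DMEM range while the KO DIAM values were uniformly low, and the fall was 1.68-fold in WT (SE 0.22 on the log2 scale) and 3.56-fold in KO cells (SE 0.23). Cenpf, a kinetochore protein, fell 2.498-fold and 4.02-fold with wide spread in DMEM.

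Of the 4 cytokinesis genes, 3 fell in both genotypes and Anln passed in neither. Anln encodes anillin, a scaffold of the contractile ring. Anln was at 33.01, 34.02, 34.97 and 31.7 CPM in the WT DMEM libraries, 31.9, 30.7, 38.9 and 32.4 in KO DMEM, 29.96, 34.5, 31.2 and 31.7 in WT DIAM and 31.99, 28.6, 32.4 and 31.2 in KO DIAM. All 4 groups overlapped, and the log2 fold changes of -0.07 in WT (SE 0.07) and -0.11 in KO cells (SE 0.07) did not pass, though with quantile normalization the KO value did (-0.17, adjusted p = 0.0385). Prc1, which bundles microtubules of the spindle midzone, was at 18.8, 21.03, 22.2 and 21.1 CPM in the WT DMEM libraries, 19.1, 19.7, 25.4 and 17.8 in KO DMEM, 13.3, 14.8, 10.3 and 8.34 in WT DIAM and 6.39, 6.59, 12.1 and 8.31 in KO DIAM. The media did not overlap, KO DIAM library 3 was well above the other KO DIAM values, and Prc1 fell 1.78-fold in WT and 2.46-fold in KO cells. Racgap1, a subunit of centralspindlin, was at 14.7, 19.7, 17.2 and 17.9 CPM in the WT DMEM libraries, 16.6, 18.9, 15.4 and 17.1 in KO DMEM, 14.5, 15.6, 12.6 and 15.4 in WT DIAM and 12.7, 11.8, 10.6 and 10.99 in KO DIAM. WT DMEM library 1 lay among the WT DIAM values. Its WT fall was 1.195-fold (adjusted p = 0.0336), and this call was lost without WT DMEM library 2 (0.118) or 4 (0.0694) and without WT DIAM library 1 (0.0595) or 3 (0.113). It was also lost with only the 2 groups fitted (0.0615), with WT DIAM libraries 1 and 2 both left out (0.0542) and in the authors' deposited table (0.0689). In KO cells the media did not overlap and Racgap1 fell 1.48-fold. Ect2, the exchange factor that activates RhoA at the cleavage site, fell 1.69-fold and 2.67-fold.

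The last role holds 2 transcription factors of the mitotic programme. Foxm1, which activates G2 and mitotic genes, was at 9.51, 11.3, 11.5 and 12.2 CPM in the WT DMEM libraries, 9.43, 9.52, 10.96 and 11.04 in KO DMEM, 10.7, 10.4, 7.37 and 8.47 in WT DIAM and 5.69, 4.91, 4.63 and 5.48 in KO DIAM. In WT cells DIAM libraries 1 and 2 lay inside the DMEM range and libraries 3 and 4 below it, and the estimate of -0.27 on the log2 scale (SE 0.12) did not pass (adjusted p = 0.06498). It did pass without WT DMEM library 1 (adjusted p = 0.0291), without WT DIAM library 1 (0.0259) or 2 (0.0352) or both (0.00472) and with quantile normalization (0.0127). Those WT DIAM libraries had the highest Foxm1 of their group, so leaving them out enlarges the fall by the choice itself. In KO cells Foxm1 fell 1.98-fold with no overlap (adjusted p = 3.94e-06). Mybl2, B-Myb, which turns the repressing DREAM complex into an activating one, was at 3.29, 2.17, 2.603 and 2.87 CPM in the WT DMEM libraries, 1.702, 2.66, 1.83 and 2.42 in KO DMEM, 1.97, 1.63, 1.41 and 1.37 in WT DIAM and 0.543, 0.996, 0.767 and 0.987 in KO DIAM. Its DIAM values were all below its DMEM values within each genotype, with falls of 1.71-fold in WT and 2.61-fold in KO cells.

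The 2 sets were then compared with each other over the 4 groups. The summed CPM of the 26 S-phase members was 480.5, 473, 469.7 and 463 in WT DMEM, 457, 467, 445 and 443 in KO DMEM, 501, 497, 445 and 429 in WT DIAM, and 406, 400.1, 389.8 and 421 in KO DIAM. WT DIAM spanned the DMEM values, and only KO DIAM lay wholly below them. Without Rrm1 and Rrm2, a choice made after seeing the data, both DIAM groups lay below all DMEM libraries. That sum was 320.3 to 332.6 CPM in WT DMEM, 307.1 to 326.6 in KO DMEM, 247.2 to 292.7 in WT DIAM and 215.1 to 238.7 in KO DIAM. The summed CPM of the 26 mitotic members was 297, 337, 320.5 and 309.9 in WT DMEM, 286, 310.2, 324 and 295.5 in KO DMEM, 215, 235, 170.5 and 171 in WT DIAM, and 139.7, 131, 139.8 and 151.5 in KO DIAM. Here both DIAM groups lay below all DMEM libraries, and all KO DIAM libraries lay below all WT DIAM libraries.

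The S-phase sum divided by the mitotic sum was similar in both genotypes in DMEM and higher in DIAM. It was 1.62, 1.40, 1.47 and 1.49 in WT DMEM, 1.60, 1.504, 1.37 and 1.498 in KO DMEM, 2.32, 2.12, 2.61 and 2.504 in WT DIAM, and 2.91, 3.06, 2.79 and 2.78 in KO DIAM. The DIAM groups did not overlap with the DMEM groups or with each other. Group means were 1.495 ± 0.0912 (SD, n = 4), 1.49 ± 0.0925, 2.39 ± 0.216 and 2.88 ± 0.131 in the same order. CPM are not corrected for gene length, so the ratio itself has no meaning and only its change between groups is used. Relative to WT DMEM the ratio was 0.999 in KO DMEM, 1.60 in WT DIAM and 1.93 in KO DIAM.

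The rise in the ratio was smaller without ribonucleotide reductase. Rrm1 and Rrm2 hold a large part of the S-phase sum, and without these 2 genes (a choice made after seeing the data) the ratio relative to WT DMEM was 1.31 in WT DIAM and 1.57 in KO DIAM. With the median log2 change over members in place of the sums, which gives each gene the same weight, it was 1.36 in WT DIAM and 1.85 in KO DIAM. Leaving out Ccna2, Foxm1 and Mybl2, which could be placed in either set, gave 1.60 and 1.89. The ratio in DIAM exceeded that in DMEM under each of these 3 choices. No p is given for these sums, since they are scores over a list of genes chosen by name.

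**Figure D4:**
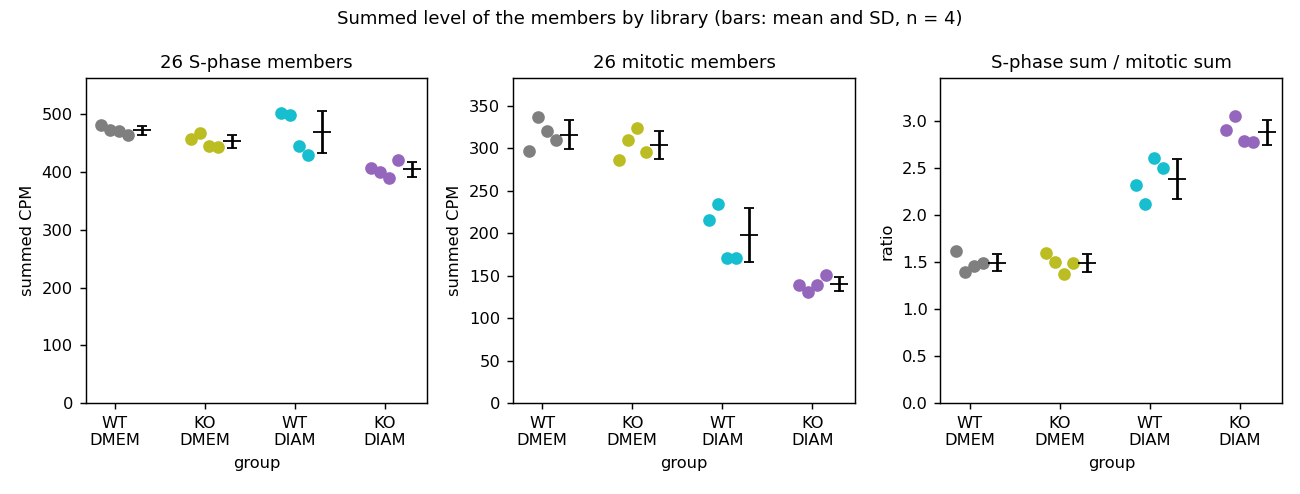
Summed CPM of the 26 S-phase members (left), of the 26 mitotic members (middle) and the ratio of the sums (right) in each library, with mean and SD (n = 4); all y axes start at 0. The S-phase sums of WT DIAM overlap those in DMEM, the mitotic sums of both DIAM groups lie below 235 CPM, and the ratio climbs from a mean of 1.495 in WT DMEM to 2.39 in WT DIAM and 2.88 in KO DIAM.

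The next question was whether cells from KO mice differed from cells of WT littermates. In DMEM none of the 52 members differed by edgeR (adjusted p of at least 0.05 for each), and 0 of all 14217 genes did (0%), with 438 genes at an unadjusted p under 0.05. DESeq2 called 1 gene and limma 0, and 2 genes passed in the authors' deposited table. No member was among the genes of DESeq2 or of the authors' deposited table. No member had an unadjusted p under 0.05. The estimates, KO against WT, lay between -0.28 and 0.31 on the log2 scale over S-phase members and between -0.34 and 0.32 over mitotic members, with medians of -0.06 and -0.10 beside -0.01 over all genes. Mcm2 was the 1 member whose genotypes did not overlap in DMEM, lower in KO cells, as 0.823% of all genes were (0.774% were higher). The smallest unadjusted p was 0.0639 for Mcm4 (-0.11, SE 0.05) and, among mitotic members, 0.122 for Mybl2 (-0.34, SE 0.21).

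In DIAM the KO cells had lower levels of many members than the WT cells, and none was called higher. By edgeR's test over all 16 libraries 10 of 26 S-phase members and 19 of 26 mitotic members were lower in KO DIAM, while 8.38% of all genes were called, 4.95% lower and 3.43% higher. All 4 KO DIAM libraries lay below all 4 WT DIAM libraries for 10 S-phase and 14 mitotic members, and for 9.05% of all genes. The reverse held for 0 members and for 7.38% of all genes. The median log2 difference, KO against WT, was -0.27 over S-phase members, -0.68 over mitotic members and 0.00 over all genes. Many of these calls were lost when 1 library was left out, with the values given further on.

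The largest difference was that of Bub1, at 2.98, 3.34, 1.72 and 1.53 CPM in WT DIAM and 0.905, 0.972, 0.877 and 1.51 CPM in KO DIAM. These groups were separate by a narrow gap, and Bub1 was 2.25-fold lower in KO DIAM (log2 fold change -1.17, SE 0.24, adjusted p = 0.0144). Ccnb2 was 2.03-fold lower (SE 0.22 on the log2 scale, adjusted p = 0.0156) and Cenpa 2.002-fold lower (SE 0.22, adjusted p = 0.0159). Foxm1 had the smallest adjusted p, with values of 10.7, 10.4, 7.37 and 8.47 CPM in WT DIAM and 5.69, 4.91, 4.63 and 5.48 CPM in KO DIAM. Every KO value was below every WT value, by 1.78-fold on average (log2 fold change -0.83, SE 0.12, adjusted p = 0.00789). Plk1 was 1.81-fold lower (adjusted p = 0.00906), Ube2c 1.87-fold (0.0121) and Ccna2 1.698-fold (0.01203).

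Birc5, Mybl2, Ttk, Aurka, Mki67, Ccnb1, Cdc20, Top2a, Cenpe, Tpx2, Cdk1 and Racgap1 were the other mitotic members called lower, by between 1.26-fold (Racgap1) and 1.98-fold (Birc5). Among the S-phase members called lower E2f8 differed most, 1.93-fold (adjusted p = 0.0175). It was followed by Gins2 (1.7-fold, 0.01203), Tyms (1.58-fold, 0.0167) and Cdt1 (1.51-fold, 0.0398). Tk1, at -0.73 on the log2 scale, was not called. Mcm5, Rrm2, Ccne1, Cdk2, Mcm2 and Mcm6 were lower by between 1.198-fold (Mcm6) and 1.395-fold (Mcm5). Rrm2 was thus higher in DIAM than in DMEM in both genotypes and lower in KO DIAM than in WT DIAM. WT DIAM library 4 lay within the KO DIAM range. E2f1 (log2 fold change -0.00, SE 0.05), Pcna (-0.13, SE 0.06) and Anln (-0.04, SE 0.07) did not differ past the threshold.

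**Figure D5:**
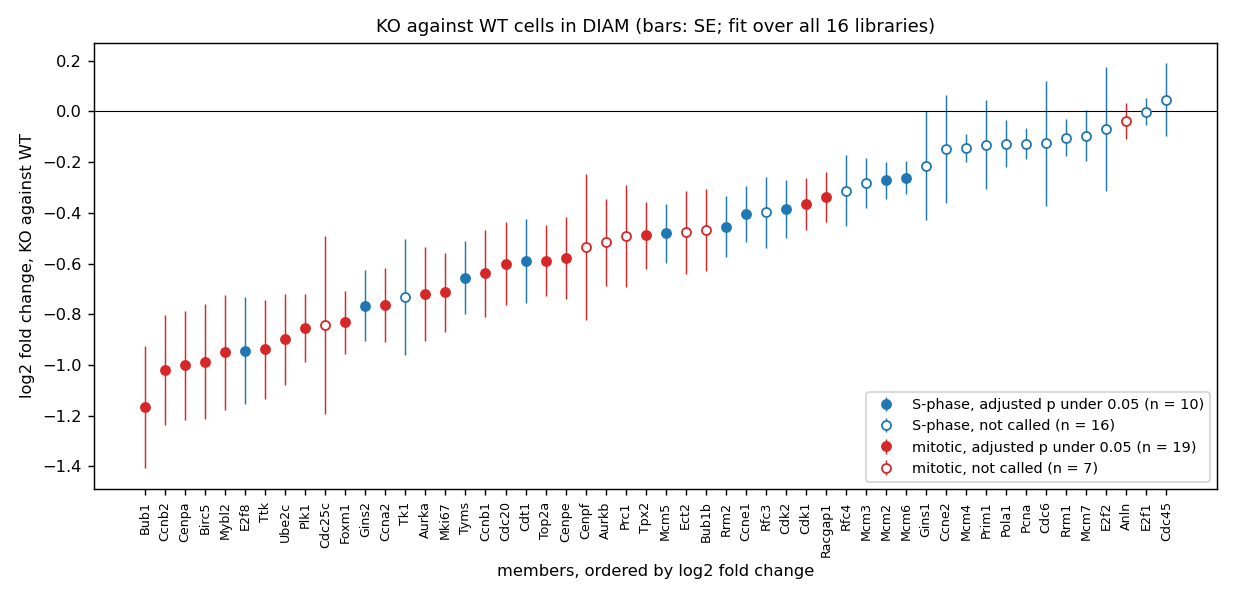
Log2 fold change of each member, KO against WT in DIAM, in rising order, with standard errors from the fit over all 16 libraries; filled points passed adjusted p under 0.05 (10 S-phase, 19 mitotic). Estimates run from Bub1 at the left to Cdc45 at the right, only Cdc45 has a positive estimate (that of E2f1, near 0, turns positive with median-ratio scaling), and most filled points are mitotic.

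These genotype calls in DIAM depended on which libraries entered. With only the WT DIAM and KO DIAM libraries fitted, 0 members and 0 of all genes passed edgeR, 3674 genes had an unadjusted p under 0.05, and the smallest adjusted p of a named member was 0.0655. Leaving out 1 library at a time gave 1 to 11 S-phase and 5 to 20 mitotic members lower. Over all genes those fits called 178 to 1480 in either direction, beside 1191 with all 16 libraries. Without WT DIAM library 1 the counts were 4 S-phase and 8 mitotic members, and 299 of all genes. Without WT DIAM library 2 they were 1, 8 and 316. Without KO DIAM library 1 they were 2, 6 and 275, and without KO DIAM library 2 they were 1, 5 and 178. Without KO DIAM library 3 the S-phase count was 4. Gins2, Ccna2, Plk1, Ube2c and Foxm1 were called in each of the 16 fits that left out 1 library. DESeq2 over all libraries called 11 S-phase and 19 mitotic members lower, with 1873 of all genes called. The authors' deposited table gave 8 and 20, with 1810 of all genes called.

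Markers of Schwann cells, the glia of peripheral nerves, moved along with this comparison. The summed CPM of 7 such markers was 221.5, 341, 142 and 141.5 in WT DIAM and 18.8, 51.2, 81.1 and 84.2 in KO DIAM, and it lay between 14.6 and 60.2 in the DMEM libraries. Of the 7 markers 6 were tested, 5 rose in DIAM in WT cells and 2 in KO cells, S100b fell in both (-1.15 and -0.87 on the log2 scale), and 0 were called between the genotypes in DIAM by edgeR (adjusted p = 0.0839 for Sox10), and Sox10 was at 30.9 to 69.9 CPM in WT DIAM and at 2.64 to 17.1 CPM in KO DIAM. WT DIAM libraries 1 and 2 had the highest Schwann sums and also the highest mitotic sums. With these 2 libraries both left out, an alternative chosen after the data were seen, 0 members were called and 1 gene in all. Since they had the highest mitotic sums in WT DIAM, leaving them out narrows the members' difference by the choice itself. It also leaves only 2 libraries in WT DIAM, so that fit cannot show whether the difference holds. In that fit Foxm1 was at -0.61 on the log2 scale (adjusted p = 0.193), Plk1 at -0.70 (0.198) and Bub1 at -0.60 (0.325). The part of the other cells in the members' difference was not tested.

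Whether the response to DIAM differed between genotypes was asked with the interaction term. No member passed edgeR, nor did any of the 14217 genes (0%), with 2255 genes at an unadjusted p under 0.05, among them 6 of 26 S-phase and 17 of 26 mitotic members. Foxm1 had the smallest adjusted p of the members (0.171; estimate -0.71 on the log2 scale, SE 0.17), followed by Plk1 (-0.73, SE 0.18, adjusted p = 0.176). Estimates below 0 mean a larger fall or a smaller rise in KO cells, and 23 of 26 S-phase and 26 of 26 mitotic members had one. The median was -0.25 over S-phase members, -0.63 over mitotic members and -0.0001 over all genes. All members were measured in the same libraries, so these signs are not independent of each other. DESeq2 called 3 members, Foxm1 (adjusted p = 0.0239), Plk1 (0.0340) and Bub1 (0.0476), among 225 genes. In the deposited table of the authors the count was 234 genes, among them Foxm1 (adjusted p = 0.0224), Plk1 (0.0343), Bub1 (0.0423) and Birc5 (0.0477). limma called 0 genes. The interaction is built from the same libraries as the genotype comparison in DIAM.

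The other genes of these pathways gave the surroundings of the 52. Their lists were set up by function, but with earlier results of these data known, so they are no independent support. Of 49 other mitotic genes 36 fell in WT cells and 44 in KO cells, and 0 rose, with medians of -0.72 and -1.16 on the log2 scale. Of all genes 27.5% fell and 27.6% rose in WT cells, and 30.8% fell and 29.8% rose in KO cells. Ckap2, a spindle protein, fell from 21.4 ± 1.04 to 11.2 ± 1.59 CPM in WT cells (mean ± SD, n = 4; log2 fold change -0.93, SE 0.10). Cks1b, a Cdk-binding subunit (-0.70, SE 0.07), and Tacc3, a spindle microtubule protein (-0.91, SE 0.12), fell as well. In DIAM 19 of the 49 were lower in KO cells and 0 higher, beside 4.95% and 3.43% of all genes, in the comparison that called 0 genes with only the 2 groups fitted and 1 gene with WT DIAM libraries 1 and 2 left out.

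Other replication genes moved less. Of 40 such genes 13 fell and 3 rose in WT cells, and 23 fell and 5 rose in KO cells, with medians of -0.18 and -0.32. The WT shares lie on either side of the background, where 27.5% of all genes fell and 27.6% rose. In KO cells 30.8% of all genes fell and 29.8% rose, so there too the falls of this list lie above that share and its rises below. Lig1, the ligase that joins Okazaki fragments (-0.58, SE 0.08), Rpa2, a subunit of the single-strand binding protein RPA (-0.54, SE 0.08), and Gins4, another GINS subunit (-0.56, SE 0.09), fell in WT cells. Timeless, a fork protection protein, rose from 6.45 ± 0.955 to 15.2 ± 2.26 CPM (1.24, SE 0.15, adjusted p = 3.31e-06) and rose in KO cells too (0.89). Rnaseh2a, the catalytic subunit of RNase H2 (0.65), and Mcm9, a helicase of DNA repair (0.38), were the other 2 that rose.

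Of 18 other nucleotide supply genes 6 rose and 4 fell in WT cells, and 6 rose and 6 fell in KO cells, which is near the shares of all genes (27.6% rose and 27.5% fell in WT, 29.8% and 30.8% in KO cells). Samhd1, which breaks down deoxynucleotides, rose from 143 ± 18.8 to 238 ± 27.99 CPM in WT (0.74, SE 0.10) and in KO cells from 132 ± 15.7 to 248 ± 17.3 CPM (0.91). Gart and Impdh2 of purine synthesis rose in WT cells (0.28 and 0.33), while Umps of pyrimidine synthesis (-0.36), the deaminase Dctd (-0.88) and the thymidylate kinase Dtymk (-0.39) fell.

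Among 20 tested E2F, pocket protein and DREAM genes 5 rose and 4 fell in WT cells, and 6 rose and 8 fell in KO cells. In WT cells both counts lie below the shares of all genes (27.6% and 27.5%), and in KO cells these shares were 29.8% and 30.8%. E2f6, a repressor E2F, rose from 42.7 ± 3.1 to 103 ± 4.91 CPM in WT (log2 fold change 1.26, SE 0.06, adjusted p = 1.66e-10) and in KO cells from 43.4 ± 0.724 to 108 ± 9.24 CPM (1.31, SE 0.06). Tfdp2, the dimer partner of E2F factors (0.79), and Lin52, a subunit of the DREAM core (0.65), rose in WT cells. E2f3, an activator (-0.34), Mybl1, A-Myb (-0.96), and Lin9, another DREAM core subunit (-0.59), fell there.

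Of 20 genes of replication stress and DNA repair 8 fell and 0 rose in WT cells, and 11 fell and 1 rose in KO cells, beside 27.5% and 27.6% of all genes in WT and 30.8% and 29.8% in KO cells. Rad54l, a recombination helicase, fell from 2.35 ± 0.179 to 0.966 ± 0.142 CPM in WT cells (-1.28, SE 0.16). Chek2, a checkpoint kinase (-0.88, SE 0.09), and Msh6, a mismatch repair protein (-0.44, SE 0.06), fell less.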

How the data were processed

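Total RNA of 16 libraries was measured with an unstranded kit, per the labels' protocols. The build was GRCm39 and the tools were R 4.4.2, DESeq2 1.46.0, Salmon 1.9.0 and FastQC, per the submitters' processing notes. The deposited library columns are named TPM in the labels but sum to 37221192 to 47626331 and are not whole, so the authors' values were treated as estimated counts (expected counts) and rounded. The authors' deposited log2 fold changes and adjusted p-values were used as an alternative only. The authors' deposited mean signal column was not tested.

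Genes at 1 CPM or more in 4 of 16 libraries were kept (14217 genes, at least 99.83% of each library's counts). The test was edgeR 4.0.16 (glmQLFTest, two-sided, robust, trimmed-mean scaling, R 4.3.3) with 1 mean per group and 12 residual degrees of freedom, adjusted over all genes. SE is the absolute log2 fold change over the square root of F. Alternatives were limma 3.58.1 on log2(CPM + 1), quantile normalization, DESeq2 1.42.0, median-ratio scaling, no filter, a filter at 5 CPM, fits of only 2 groups, a replicate block, each library left out and, chosen after seeing the data, WT DIAM libraries 1 and 2 left out together and the ratio without Rrm1 and Rrm2. WT DIAM libraries 1 and 2 had that group's highest S-phase and mitotic sums. Leaving both out thus shifts the members' estimates by the choice itself, wherever that fit is quoted. The edgeR fit was tested on simulated data with 200 changed genes.

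The 52 genes, the 5 pathway lists and 7 marker lists were chosen with earlier results of these data known. Values in every library are given for the 2 members with the highest mean CPM in each role, those called against the direction of most called members of their set, those called between genotypes, and Mki67, Ccna2 and Pcna. From each pathway list the 3 genes of smallest p in WT cells are named in each direction. Each pathway and marker list was counted in the same way. Intervals cover counting error only.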

Additional observations from a re-analysis of the deposited data

Results flagged for a closer look

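In 7 of 160 series of 4 libraries, 1 library stood apart from the other 3 by more than Dixon's 95% critical value for 4 samples. Chance flags about 1 in 20 such series, here about 8, so the number found is near what chance gives. Pola1 was high in WT DIAM library 2 (6.66 CPM) and in KO DIAM library 2 (6.03 CPM). Rrm2 was high in KO DIAM library 1 (56.7 CPM). Tyms (10.4 CPM) and E2f8 (2.11 CPM) were high in WT DIAM library 2. Aurka was low in KO DMEM library 4 (5.00 CPM), and Bub1 was high in KO DIAM library 4 (1.51 CPM).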

How the results depend on the processing

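The falls of members in DIAM kept their direction and their counts within 1.5 times under every alternative run, apart from the small S-phase counts that rose. In WT cells 12 to 16 S-phase and 22 to 24 mitotic members fell with each library left out in turn, and in KO cells 18 to 20 and 25. The S-phase members that rose numbered 1 in WT cells with WT DIAM libraries 1 and 2 both left out, 1 in KO cells with quantile normalization, and 1 to 3 in KO cells with each library left out (1 without KO DMEM library 3 or KO DIAM library 4). Quantile normalization moved the split of all genes to 3287 higher and 4886 lower in WT cells (3929 and 3910 in the main analysis) and to 3662 and 5107 in KO cells (4243 and 4380).

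For KO against WT in DMEM DESeq2 gave 1 gene, the table deposited by the authors gave 2, and leaving out 1 library 0 to 2. For KO against WT in DIAM (1191 genes) DESeq2 gave 1873 genes, the table deposited by the authors gave 1810, the fit of only 2 groups 0, WT DIAM libraries 1 and 2 left out 1, and leaving out 1 library 178 to 1480. S-phase members lower there numbered 6 with no filter, 0 with only 2 groups, 0 with the 2 WT libraries left out and 1 to 11 with 1 library left out. Mitotic members lower there numbered 0, 0 and 5 to 20 in the last 3 settings. For the interaction DESeq2 gave 225 genes and 3 mitotic members, the table deposited by the authors gave 234 and 4, and leaving out 1 library 0 to 1 genes. Leaving out the 2 WT libraries, which had the highest mitotic sums in WT DIAM, narrows the members' difference by the choice itself. The cause of the other changes was not tested.

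The S-phase to mitotic ratio relative to WT DMEM moved from 1.60 to 1.36 in WT DIAM with medians and to 1.31 without Rrm1 and Rrm2, and from 1.93 to 1.57 in KO DIAM without Rrm1 and Rrm2. Estimates near 0 changed sign. For E2f1, KO against WT in DIAM, they were 0.0061 with median-ratio scaling, 0.0062 with DESeq2, 0.0017 with no filter, 0.0043 in the authors' deposited table and 0.0098 with WT DIAM libraries 1 and 2 left out. With 1 library left out E2f1 ranged from -0.034 to 0.037, E2f2 from -0.16 to 0.10 and Anln from -0.058 to 0.0099 there, and Mcm6 in WT cells from -0.056 to 0.0086.

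The replicate numbers are in the labels, but same-numbered libraries correlated between -0.22 and 0.38 in their deviations from group means, 13 of 24 pairs were over 0.1, and the best match had the same number in 20 of 48 cases. Each best match was picked from 4 libraries. Mesothelial sums of libraries 1 to 4 were 325.9, 85.2, 62.8 and 338.8 CPM in KO DMEM and 592.7, 217, 202.1 and 669.8 in KO DIAM. The highest were libraries 1 and 4 in both KO groups and libraries 3 and 4 in both WT groups. Schwann sums did not run in parallel, as WT library 2 was lowest in DMEM (17.8 CPM) and highest in DIAM (341 CPM). The labels tie no number to an animal, culture or day, and not every pair was over 0.1. In the main tests the libraries were taken to share only a number. Whether the numbers mark a shared source cannot be settled from these values. With a replicate block 14 S-phase and 23 mitotic members fell in WT cells, 19 and 25 in KO cells, and 8 and 18 were lower in KO than in WT cells in DIAM. A replicate block within genotype also gave 14 and 23 in WT cells. In both genotypes it kept the medium call of all 37 members with values given for every library. That block cannot compare the genotypes, since each number then lies within 1 genotype. Depth limits Cdc25c, Mybl2 and E2f8 most, whose lowest counts in a library were 12, 21 and 22.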
